A study of Mus musculus with 2 samples.

Results

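Dendritic cells that have taken up antigen and matured switch on the chemokine receptor Ccr7, which guides them along Ccl19 and Ccl21 gradients to lymph nodes, and the actin-bundling protein Fscn1, which shapes their long processes. In tumors, these mature cells are also known for Ccl22 and Ccl17, the ligands of Ccr4 on regulatory T cells, and for carrying T cell-activating and T cell-restraining genes at the same time. The cells described here were the mature Ccr7 dendritic cells of subcutaneous MC38 tumors, a mouse colon carcinoma line grown in C57BL/6 hosts. They were chosen by their own counts of unique molecular identifiers (UMIs, each tagging 1 captured RNA molecule): at least 2 Ccr7 UMIs, at least 2 UMIs of Fscn1 and Ccl22 together, no UMI of the T cell genes Cd3e, Cd3d, Cd3g or Trac, and at most 2 UMIs of the macrophage genes C1qa, C1qb and C1qc together. The rule found 63 cells among 25402 kept cells, 32 of 13542 in the Lmo7+/+ library plus 31 of 11860 in the Lmo7-/- library.

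The study asked how the loss of Lmo7, a LIM-domain adaptor protein, in the host changes the cells of the tumor. Live cells were sorted from tumors of female Lmo7+/+ and Lmo7-/- mice, injected with MC38 cells at 6 to 8 weeks of age. Each genotype gave 1 droplet single-cell RNA library. The knockout was in the whole host, the injected MC38 cells were not deleted, and the number of mice behind each library is not given in the sources used here. With 1 library per genotype there was no replicate, so no test was run. The 95% intervals given cover counting error only, and genotype cannot be told apart from the library. Paired values name the Lmo7+/+ library first and the Lmo7-/- library second.

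Lmo7 itself could not check the labels in these cells, with 0 UMIs in the 32 Lmo7+/+ cells and 1 UMI in the 31 Lmo7-/- cells. Over all kept cells it was read at 13.97 CPM (counts scaled to a total of 1000000 per group of cells) in the Lmo7+/+ library, against 10.4 CPM in the Lmo7-/- library, a log2 ratio of -0.43 (-0.56 to -0.30). In macrophages, chosen by at least 10 C1q UMIs, it was at 2.84 and 2.54 CPM, a log2 ratio of -0.16 (-0.67 to 0.35) whose interval includes 0. In cells without a UMI of Ptprc, Tyrobp, Fcer1g, the T cell genes or the C1q genes the ratio was -0.35 (-0.58 to -0.12). Lmo7 RNA was thus lower over all kept cells but present in the Lmo7-/- library, whose implanted tumor cells carry the gene intact. The source of the remaining RNA was not tested. The sample titles call the mice WT and KO, and both libraries are named here by the study's genotypes for them. The libraries held 98582479 and 80648345 UMIs in 16208 and 15163 droplets. They shared 279 cell barcodes, of which 1 belonged to a mature dendritic cell.

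Ccr7 alone did not pick these cells out. Of the kept cells, 185 and 194 by library had at least 2 Ccr7 UMIs, and the Fscn1 and Ccl22 step left 52 and 43. The T cell step then removed 10 and 6 cells and the C1q step 10 and 6 more. Just inside the rule stood 10 cells with exactly 2 Ccr7 UMIs, 2 and 8 by library, and 2 cells with exactly 2 UMIs of Fscn1 and Ccl22. Just outside it stood 27 cells with 1 Ccr7 UMI that met every other step, 20 and 7 by library, and 11 cells with a single UMI of Fscn1 and Ccl22. A further 3 droplets met the rule on genes but not the filter of 500 genes, 1000 UMIs and 15% mitochondrial UMIs.

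The cells made up 0.236% (exact interval 0.162 to 0.333%) of kept cells in the Lmo7+/+ library, against 0.261% (0.178 to 0.371%) in the Lmo7-/- library. The difference was 0.0251 percentage points, with an interval from -0.0989 to 0.154 that spans 0, so no difference in their share was detectable at this depth. Only 18 and 14 of these cells had a UMI of Ptprc, the pan-leukocyte gene. Among kept cells with a Ptprc UMI the order was the other way round, with these 18 and 14 cells at 0.359% and 0.269%. The interval of that difference again spans 0 (-0.324 to 0.135 points). The sort, the digestion and the filter all act on these shares, and their part was not tested.

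The label held for most of the 63 cells when read on genes that the rule did not use. A list of 28 genes of the mature program (Cacnb3, Socs2, Tmem123, Serpinb9 and others), chosen with earlier results of these data known, gave UMIs for 6 to 24 genes in every cell. The median was 15.5 and 16 program genes, against medians of 5.5 and 7 in the comparison dendritic cells described below and 6 and 5 in macrophages. Program UMIs made up a median of 1.95% and 2.26% of a cell's UMIs, against 0.247% and 0.263% in macrophages, which were cells chosen by at least 10 C1q UMIs.

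In 13 of the 63 cells the program took under 1% of UMIs, 6 and 7 by library, and 10 of these had only 2 or 3 Ccr7 UMIs. The others included Lmo7+/+ cells with 21 and 22 Ccr7 UMIs, and the latter also held 69 Ccl22 UMIs. As a group the 13 cells were deep, with median depths of 9366 and 8313 UMIs against 3389.5 and 2584.5 in the other members. They therefore supplied 41.1% and 51.0% of all UMIs of the mature dendritic cells. The deepest, with 36357 UMIs in the Lmo7-/- library, held 83 Top2a UMIs, 39 UMIs of the NK cell list and 49 Ccl5 UMIs, and the deepest Lmo7+/+ cell, with 16575 UMIs, held 11 UMIs of Siglech, a plasmacytoid dendritic cell gene. Each of 5 Lmo7-/- cells had more than 5 UMIs of the collagen gene Col3a1, 4 of them below 1% program UMIs, and no Lmo7+/+ cell had more than 2. Whether these 13 droplets held more than 1 cell was not tested beyond the doublet caller Scrublet, which marked 2 of the 32 Lmo7+/+ members and 0 of the 31 Lmo7-/- members. Values are therefore given over all 63 cells, and for some genes also over the 50 cells at 1% or more.

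**Figure D1:**
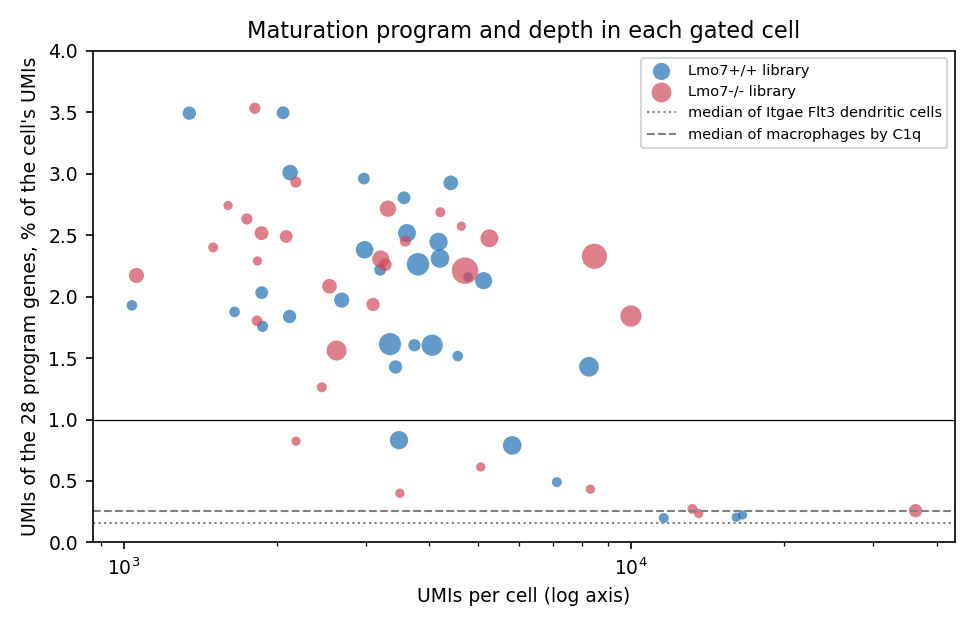
Each point is 1 of the 63 cells, placed by its UMIs (log axis) and by the percent of them that came from the 28 program genes, with the point's area growing with its Ccr7 UMIs; grey lines mark the medians of the comparison cells, averaged over the libraries, and the black line marks 1%. The 50 cells above 1% reach up to 3.53%, and the 6 cells over 10000 UMIs lie near the grey lines.

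The 3 genes of the rule are described without any test. Ccr7, on chromosome 11 at 99144196 to 99155077 of the GRCm38 build, had a median of 9 UMIs per Lmo7+/+ cell (2 to 34) and 5 per Lmo7-/- cell (2 to 49). Fscn1, on chromosome 5 at 142960343 to 142973185, had medians of 13 (0 to 64) and 12 (0 to 121) UMIs, with 2 cells without a UMI in each library. Ccl22, on chromosome 8 at 94745590 to 94751699, was uneven, with medians of 2.5 (0 to 69) and 2 (0 to 52) UMIs and no UMI in 8 and 11 cells. Only 40 of the 63 cells, 22 and 18 by library, carried both Fscn1 and Ccl22.

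These few cells, 0.236% and 0.261% of kept cells, held a large part of the UMIs of some genes over all kept cells of their library. Il4i1, which encodes a secreted amino acid oxidase known to restrain T cells, was not used by the rule. It had 44.4% and 48.1% of its UMIs here, from 44 and 37 UMIs. Ccl22, by which the cells were chosen, had 45.4% and 60.4%. Scin, an actin-severing protein gene, had 31.6% and 41.6%, Ccl17 had 16.8% and 30.5%, and Il12b, the shared subunit of IL-12 and IL-23, had 12.1% and 11.4%. Fscn1 was the opposite case, with 1.00% and 1.59% of its UMIs in these cells, since most were read in cells of other types.

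The mature cells were compared with Ccr7-negative dendritic cells chosen by Flt3 and by Itgae and Clec9a. Itgae and Clec9a are genes of the type 1 lineage, which is specialised in cross-presentation. No other Ccr7-negative dendritic cells were compared, so the contrast is with type 1-like cells only. There were 26 and 21 such cells by library. Counts were summed over cells and scaled to CPM, and a gene with at least 20 counts was called when it was 2-fold apart in the same direction in both libraries. Of 4707 genes compared, 9.18% were at least 2-fold higher and 7.12% at least 2-fold lower in the mature cells, with median log2 ratios of 0.0046 and 0.15 over all genes in the Lmo7+/+ and Lmo7-/- libraries.

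The program list stood far above that background, with 23 of its 25 compared genes at least 2-fold higher and 0 lower, and median log2 ratios of 3.68 and 2.80. Cacnb3, a calcium channel subunit gene, was read at 582 and 584 CPM and had no UMI in the comparison cells, which makes it at least 34.2-fold and 27.0-fold higher (bounds set at 3 counts per library). Socs2, a suppressor of cytokine signaling, was at 447 and 428 CPM against 0 and 14.4 CPM. Samsn1, a signaling adaptor gene, was at 440 and 472 CPM against 17.1 and 7.20 CPM, and Stat4, which relays IL-12 signals, at 366 and 366 CPM against 17.1 and 21.6 CPM. Tmem123, a membrane glycoprotein gene read in 32 of 32 and 30 of 31 cells, was at 2051 and 1397 CPM against 131 and 86.4 CPM. Tbc1d4, Serpinb9 and Cd63, the next of the list by UMIs, had log2 ratios of 3.73 and 2.22, 1.92 and 2.11, and 2.06 and 2.30. The program list was drawn up for such cells, so its direction is a check of the label rather than an independent result, and Lamp3, a marker of these cells in humans, had no UMI in any of them.

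Shares of cells with a UMI gave the same picture at a fixed depth. After thinning each cell to 1500 UMIs, which left out 3 of the 63 cells, Cacnb3 was detected in 66.7% (exact interval 47.2 to 82.7%) of Lmo7+/+ and 63.3% (43.9 to 80.1%) of Lmo7-/- cells, and without thinning in 71.9% and 80.6%. In T cells the shares were 0.857% and 0.806% after thinning and 1.81% and 1.73% without. Il12b was detected in 43.3% and 33.3% of mature cells after thinning (46.9% and 45.2% without) and in 0 of 350 and 1 of 496 T cells, the first of which allows a share of T cells with a UMI of up to 0.857% by 3 counts and 1.05% by the exact interval. Unthinned depth was a median of 3591 and 3209 UMIs in the mature cells and 2459 and 2400 in T cells.

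**Figure D2:**
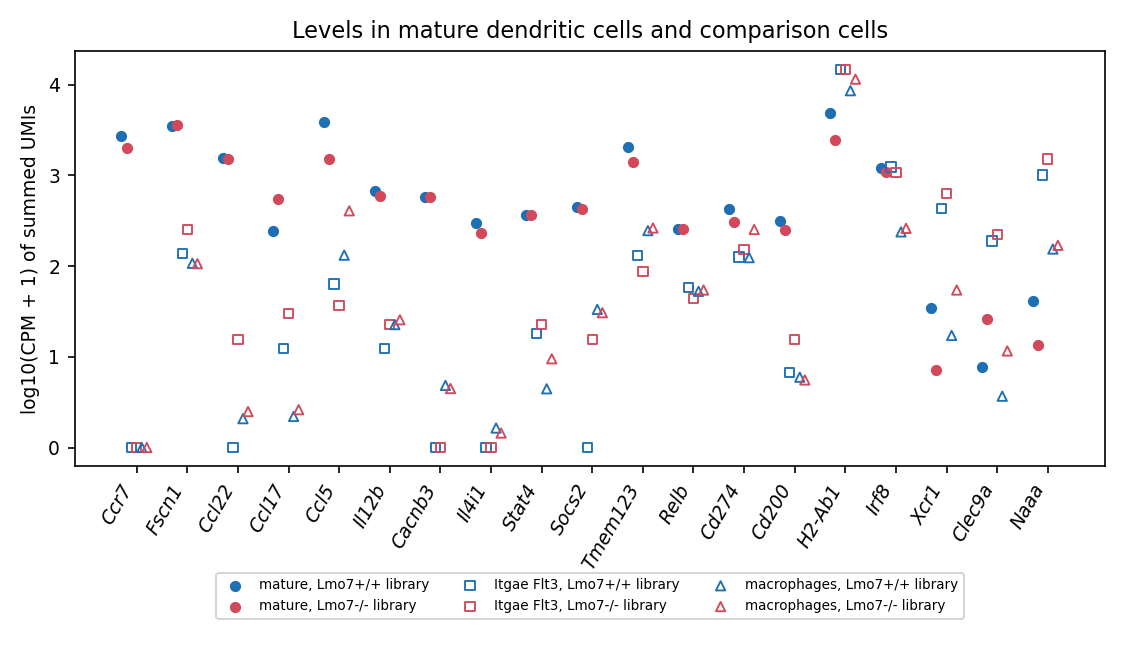
Levels of 19 genes as log10(CPM + 1) of summed UMIs in mature cells (filled circles), Itgae Flt3 dendritic cells (open squares) and macrophages (open triangles) of both libraries. The genes from Ccr7 to Cd200 are highest in the mature cells, H2-Ab1, Xcr1, Clec9a and Naaa are highest in the Itgae Flt3 cells, and Irf8 is alike in both dendritic groups. Part of this is set by the choice of cells. Ccr7, Fscn1 and Ccl22 chose the mature cells, both comparison groups were chosen without Ccr7 UMIs, and Clec9a helped choose the Itgae Flt3 cells.

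Among genes of T cell activation, 5 of 11 compared were at least 2-fold higher than in the Itgae Flt3 cells and 0 lower. Il12b was at 677 and 590 CPM against 11.4 and 21.6 CPM, log2 ratios of 5.90 (4.01 to 8.96) and 4.77 (3.18 to 7.07). Those UMIs were uneven, with 36.0% and 27.4% of them in a single cell of each library. Cd40, the receptor for T cell help, was at 251 and 155 CPM against 34.1 and 14.4 CPM. Cd83 and Cd86 were not 2-fold apart, with log2 ratios of 0.44 and 0.59 for Cd83 and 0.16 and -0.42 for Cd86. The other genes past 2-fold, listed after their values were seen, were Cd80, Tnfsf9 and Il15ra.

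Some genes that restrain T cells were higher in the same cells. Of 12 compared, 4 were at least 2-fold higher, namely Cd274, Pdcd1lg2, Cd200 and Il4i1, and 2 lower, Lgals9 and Havcr2. Cd274, which encodes the checkpoint ligand PD-L1, was at 427 and 304 CPM against 125 and 151 CPM. Cd200, whose receptor dampens myeloid cells, was at 311 and 248 CPM against 5.68 and 14.4 CPM, and Il4i1 was at 298 and 230 CPM against 0 UMIs in both libraries. Cd47, the signal that blocks engulfment, was close to even, with log2 ratios of 0.30 and 0.01.

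Much of the list of the NF-kappaB family and its targets, which relay maturation signals, was higher: 10 of 15 compared genes were at least 2-fold higher and 0 lower, with median log2 ratios of 1.65 and 1.68. Bcl2a1b, a survival gene with near-identical copies whose reads may be split among them, was at 779 and 788 CPM against 176 and 173 CPM. Traf1, an adaptor of TNF receptors, was at 643 and 503 CPM against 119 and 72.0 CPM, and Rel, a subunit of the factor, at 609 and 341 CPM against 153 and 166 CPM. Nfkbia, the inhibitor that NF-kappaB itself induces, had log2 ratios of 1.15 and 0.94 and so passed 2-fold in the Lmo7+/+ library alone.

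The starts of several genes of the list carry an NF-kappaB-type run of letters (3 G, any 2 bases, 2 T, any 1 base, 2 C), a classical binding pattern of the family, and 4 genes are shown because they encode subunits or inhibitors of it. RefSeq windows of 300 bases (250 before to 50 after the gene start, GRCm38.p6) were searched on both strands. Of 27025 genes with a window, 5.48% held a match, and of the 14 NF-kappaB list genes with one, 6 did (Bcl2l1, Nfkb2, Nfkbia, Rel, Tnfaip3 and Traf2). Of these 6, Nfkb2 and Rel were among the 10 genes at least 2-fold higher in both libraries and the other 4 were not. In the lines below the match is in capitals and the sequence is read along the gene's strand, on which it can stand in either orientation.
Nfkb2, chr19:46304688-46304717, plus strand: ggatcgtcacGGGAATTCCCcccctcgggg
Nfkbia, chr12:55492657-55492686, minus strand: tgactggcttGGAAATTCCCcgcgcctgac
Rel, chr11:23771042-23771071, minus strand: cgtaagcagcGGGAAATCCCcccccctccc
Tnfaip3, chr10:19015403-19015432, minus strand: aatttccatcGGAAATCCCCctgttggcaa
The matches start 39, 29, 92 and 12 bases before the gene start, the one in Rel overlaps a second match 1 base away, and Nfkb2 held 3 further matches. None of the 21 program genes with a window held these letters there. A match is a description of the letters and not of binding.

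The antigen presentation genes were divided. In the MHC class II list, 6 of 13 compared genes were at least 2-fold lower than in the Itgae Flt3 cells and 1, Lgmn, higher. H2-Ab1 was at 4821 and 2483 CPM against 14646 and 14611 CPM, and H2-Aa at 6642 and 5240 CPM against 12350 and 14517 CPM. Cd74, the class II chaperone, was at 2051 and 1626 CPM against 3950 and 4414 CPM. Over the 50 cells at 1% or more of program UMIs, H2-Aa was at 6980 and 9584 CPM and Cd74 at 1713 and 2688 CPM, so that the Lmo7-/- cells lay closer to the comparison cells for both, with log2 ratios of -0.60 and -0.72 in place of -1.47 and -1.44. H2-Ab1 stayed lower there, with log2 ratios of -1.90 and -1.98. The class II genes were still widely detected, and H2-Aa had a UMI in 32 of 32 and 28 of 31 cells. In the MHC class I list, 0 of 14 genes were 2-fold apart in either direction, with median log2 ratios of -0.12 and -0.28, and B2m was at 5044 and 5314 CPM against 3092 and 3601 CPM. H2-D1 and H2-K1 had log2 ratios of 0.34 and 0.62, and of 0.42 and 0.74.

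Most genes of the type 1 lineage were lower, and this list is a description only, since the comparison cells were chosen as type 1 cells by Itgae and Clec9a. Of 14 compared genes 12 were at least 2-fold lower and 0 higher, with medians of -3.68 and -3.89. Naaa, a lysosomal enzyme gene, was at 40.6 and 12.4 CPM against 1012 and 1512 CPM. Xcr1, the chemokine receptor that marks the lineage, was at 33.9 and 6.21 CPM against 432 and 634 CPM, and Ckb, the gene of a creatine kinase outside the list, at 20.3 and 6.21 CPM against 580 and 439 CPM. Irf8, the factor that the lineage depends on, was even, at 1219 and 1093 CPM against 1239 and 1066 CPM, with log2 ratios of -0.02 (-0.32 to 0.27) and 0.04 (-0.29 to 0.36). Id2, a factor common to conventional dendritic cells, was higher at 1490 and 1211 CPM against 597 and 583 CPM.

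The lineage each mature cell came from was mostly not readable. By 6 genes of each lineage, 5 Lmo7+/+ and 9 Lmo7-/- cells leaned to type 1 and 8 and 6 cells to type 2, and 19 and 16 cells had no UMI of either set. The share leaning to type 1 was 15.6% (5.28 to 32.8%) in the Lmo7+/+ library, against 29.0% (14.2 to 48.0%) in the Lmo7-/- library. After thinning to 1500 UMIs it was 3.33% and 16.7%. The Itgae Flt3 cells leaned to type 1 in 92.3% and 90.5%. Of the type 2 list, Cd209a, Clec4a4 and Clec4b1 had no UMI in any mature cell, and Klf4 was at 366 and 180 CPM and Sirpa at 88.0 and 49.7 CPM. Against the Itgae Flt3 cells 2 of 6 compared type 2 genes were higher, Sirpa and Tnip3, and 2 lower, Mgl2 and Clec12a.

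Of the migration list, 6 of 17 genes were at least 2-fold higher and 0 lower. These were Ccr7, Fscn1, Myo1g, Marcks, Marcksl1 and Cdc42ep3, of which the rule used the first 2. Actg1, a cytoplasmic actin gene, had log2 ratios of only 0.40 and -0.10, and Vim, an intermediate filament gene, 0.27 and 0.47. Of 8 genes of the Ccr7 and Ccr4 axes, 5 had 0 UMIs in all 63 cells, namely Ccl19, Ccl21a, Ackr4, Ccr4 and Ackr2. Ccr7 itself and the Ccr4 ligands Ccl17 and Ccl22 were read. In the chemokine list, Ccl22, Ccl17, Ccl5 and Ccl2 were at least 2-fold higher than in the Itgae Flt3 cells, and Ccl4 lower, of 9 compared, where the rule itself used Ccl22, with Cxcl16 at log2 ratios of 1.08 and 0.45.

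Ccl5, which draws T cells and NK cells, had the most UMIs of the chemokine list in the Lmo7+/+ cells and 1 fewer than Ccl22 in the Lmo7-/- cells (243 and 244 UMIs), at 3886 CPM (3575 to 4218) in the Lmo7+/+ cells and 1509 CPM (1325 to 1711) in the Lmo7-/- cells, against 62.5 and 36.0 CPM in the Itgae Flt3 cells. Ccl17, which lies 58.753 kilobases beyond Ccl22 on chromosome 8 (94810453 to 94812036), was at 244 and 553 CPM. Ccl17 was confined to 8 of 32 and 6 of 31 cells. In those cells the median Ccl22 count was 9.5 and 26 UMIs, against 1.5 and 1 UMIs in the 24 and 25 cells without Ccl17. For Ccl5 the medians ran from 0.5 UMIs in the Lmo7+/+ cells with Ccl17 to 5 in those without, and from 2.5 to 4 UMIs in the Lmo7-/- cells. Ccl22 counts were thus higher in the cells with Ccl17, a split that was chosen after the values were seen and has no test. Depth was not matched between these sets.

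**Figure D3:**
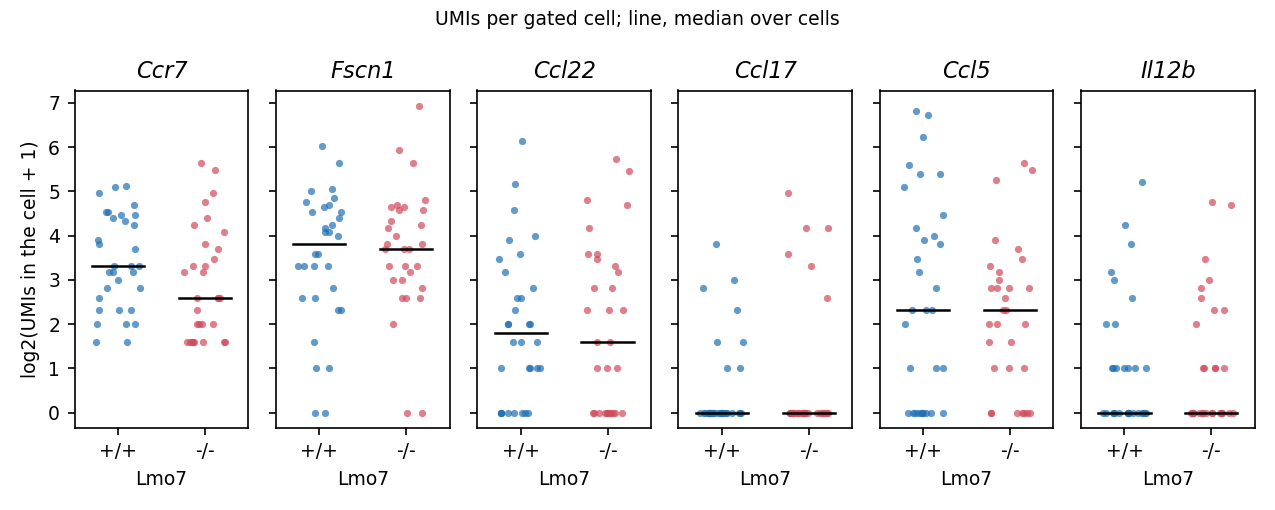
UMIs of 6 genes in each of the 32 Lmo7+/+ and 31 Lmo7-/- cells, as log2(UMIs + 1), with the line at the median over cells. Ccr7 starts at 2 UMIs by the rule, Ccl17 and Il12b are at 0 in most cells, and the highest Ccl5 cells are in the Lmo7+/+ library.

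Between the libraries, 2746 genes with at least 20 counts could be compared in the mature cells, and 7.06% of them were at least 2-fold higher and 6.23% at least 2-fold lower in the Lmo7-/- library. The median log2 ratio was 0.00037. Without the 3 cells over 10000 UMIs in each library, 1735 genes could be compared, of which 89 were higher and 128 lower, in place of 194 and 171. Without the 13 cells under 1% program UMIs, 76 were higher and 99 lower, of 1419 genes that then had enough counts. Most program genes lay within 2-fold between the libraries. In the program list 1 of 25 genes, Ccl17, was higher and 2, Apol7c and Tnfaip2, were lower, with a median of -0.13. Cacnb3 had a log2 ratio of 0.0032 (-0.43 to 0.44), Fscn1 0.06 (-0.12 to 0.23) and Ccl22 -0.03 (-0.29 to 0.24), and Ccr7 was -0.44 (-0.66 to -0.23). The rule chose the cells by Fscn1, Ccl22 and Ccr7, so the ratios of these genes are a description only. Over the 50 cells at 1% or more of program UMIs, Ccr7 came to -0.08 and Ccl22 to 0.71. That cut left out a Lmo7+/+ cell with 69 of the 228 Ccl22 UMIs of its library.

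Of 7 compared chemokines 1, Ccl17, was at least 2-fold higher in the Lmo7-/- library and 3, Ccl5, Cxcl9 and Cxcl2, were lower. Ccl5 was lower in the Lmo7-/- library by a log2 ratio of -1.37 (-1.59 to -1.15), and the ratio lay between -2.20 and -0.41 over all 15 alternatives. The difference lay in the highest cells, since the median was 4 UMIs per cell in both libraries and 22 and 24 cells had a UMI. The 7 Lmo7+/+ cells with more than 30 Ccl5 UMIs held 452 of 574 UMIs, and the 3 such Lmo7-/- cells held 130 of 243. In macrophages Ccl5 went the other way, at 131 and 406 CPM. Ccl17 was higher in the Lmo7-/- library by 1.18 (0.61 to 1.78), between 0.88 and 2.09 over the 15 alternatives, and rested on 36 UMIs in 8 cells against 89 UMIs in 6 cells, of which a single cell of each library held 36.1% and 33.7%.

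Among genes with at least 100 counts, those furthest down in the Lmo7-/- library were Dnase1l3, Apol7c, Gm42418, Ccl5, Il1b, Coro1a, Plscr1 and Laptm5. Dnase1l3, a nuclease secreted by dendritic cells, was at 562 and 180 CPM, a log2 ratio of -1.64 (-2.31 to -1.02), which came to -0.83 over the 50 cells at 1% or more of program UMIs. Apol7c, an apolipoprotein L family gene, was at 508 and 180 CPM, but a single Lmo7+/+ cell held 85.3% of its UMIs there. Gm42418, a locus that overlaps ribosomal RNA, was at 2376 and 900 CPM in these cells and at 1523 and 1118 CPM in macrophages. Il1b, an inflammatory cytokine, was at 1049 and 441 CPM, and its mean over cells gave a log2 ratio of -0.64 in place of -1.25. Coro1a, Plscr1 and Laptm5 had log2 ratios of -1.20, -1.15 and -1.09. Where cells of any C1q count were let in, the ratios of Dnase1l3 and Il1b turned to 0.17 and 0.11, and where both Fscn1 and Ccl22 were required that of Apol7c turned to 1.14.

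Those furthest up were Top2a, Igfbp4, Jun, Scd2, Ccl17, Bcl2l14, Rbm39 and Selenof. Top2a, a topoisomerase of dividing cells, was at 169 and 627 CPM, and 82.2% of the Lmo7-/- UMIs came from the deepest cell. Without the cells over 10000 UMIs its log2 ratio was -1.44 in place of 1.89. In the cell cycle list 7 of 9 compared genes were at least 2-fold higher and 0 lower. Of these Stmn1 went from 1.59 to -0.38, and Ube2c from 2.80 to -0.34, without the cells over 10000 UMIs. Igfbp4 and Scd2 also had 79.6% and 74.5% of their Lmo7-/- UMIs in single cells. Jun, an immediate early gene that tissue digestion also induces, was at 264 and 757 CPM, a log2 ratio of 1.52 (0.99 to 2.08) that came to 0.14 over the 50 cells at 1% or more. Rbm39, a splicing factor gene read in 20 and 22 cells, had a ratio of 0.94 (0.32 to 1.58), and over its 15 alternatives the ratio lay between 0.41 and 1.13.

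**Figure D4:**
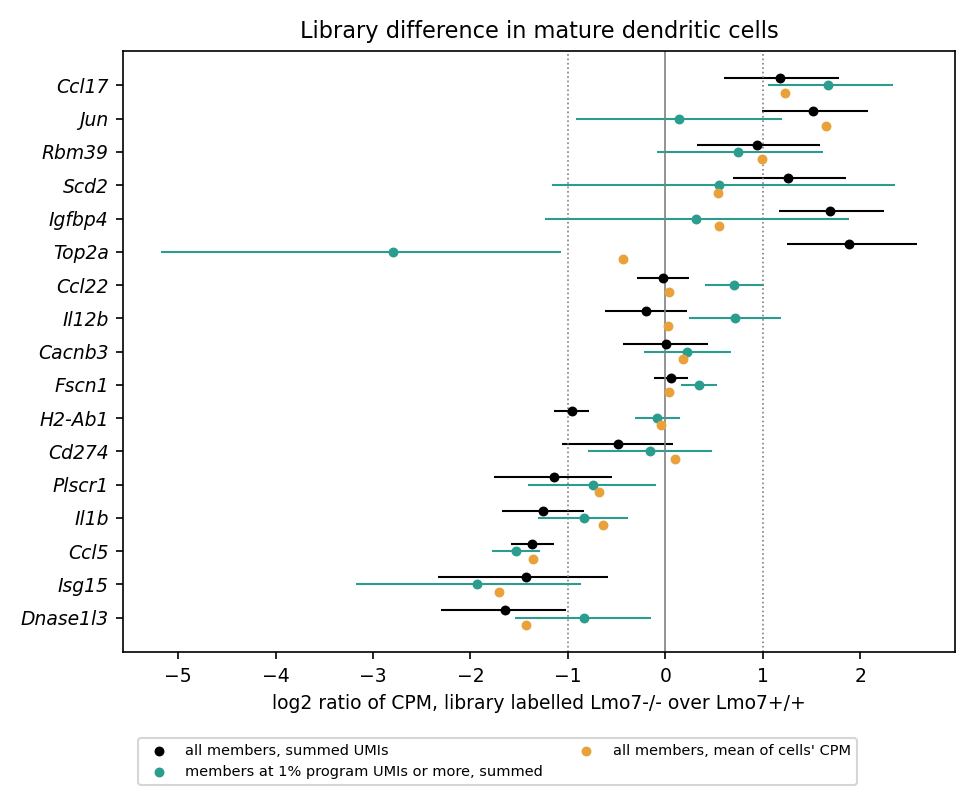
Log2 ratio of the Lmo7-/- over the Lmo7+/+ library for 17 genes, from summed UMIs of all 63 cells (black, with exact 95% intervals of the counts), from the 50 cells with at least 1% program UMIs (green, with the same interval) and from the mean of the cells' CPM (orange). Dotted lines mark 2-fold; Ccl17 stays above 0 and Ccl5 below -1 in all 3, and Top2a changes side.

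Between the libraries, of 11 compared genes of activation 0 were 2-fold higher and 3 lower (Icosl, Tnfsf4 and Icam1), and of 8 restraining genes 0 passed in either direction. Il12b had a log2 ratio of -0.20 (-0.62 to 0.22), Cd40 -0.69 (-1.48 to 0.08), Cd274 -0.49 (-1.06 to 0.07), Cd200 -0.33 (-0.98 to 0.32) and Il4i1 -0.38 (-1.05 to 0.29). Each interval includes 0, and those of Cd40, Cd274 and Il4i1 also include 2-fold lower. Over the 50 cells at 1% or more of program UMIs the ratio of Il12b was 0.71. That cut left out a Lmo7+/+ cell with 36 of the 100 Il12b UMIs of its library, which had 22 Ccr7 UMIs and 0.789% program UMIs. In the NF-kappaB list 1 of 15 genes, Bcl2l1, was lower and 0 higher.

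Of 9 compared class II genes 1, H2-DMb2, was 2-fold lower in the Lmo7-/- library and 0 higher, and of 14 class I genes 0 passed. H2-Ab1 had a log2 ratio of -0.96 (-1.14 to -0.78) from summed counts, but -0.08 over the 50 cells at 1% or more and -0.05 from the mean over cells. The type I interferon list had 4 of 6 genes lower (Isg15, Irf7, Oasl1 and Stat2) and 0 higher. Isg15, a ubiquitin-like protein gene that interferon induces, was at 284 and 106 CPM, -1.43 (-2.34 to -0.59), from 18 and 7 cells with a UMI, and 0.11 where cells of any C1q count were let in. Bst2 and Oasl2 stood at 0.05 (-0.81 to 0.93) and 0.46 (-0.67 to 1.65), and over the 50 cells at 1% or more of program UMIs at -0.44 and -0.54. In the interferon gamma list Irf1 had a log2 ratio of 0.27, with 2 of 11 genes higher (Irgm1 and Iigp1) and 2 lower (Cxcl9 and Ifngr2). Cxcl9 was at -1.13, and at -3.35 over the 50 cells. Its ratio turned to 1.15 where both Fscn1 and Ccl22 were required, 0.39 with no C1q limit and 0.14 with 1 Ccr7 UMI allowed. Conventional dendritic cell identity had 4 of 7 genes lower (Zbtb46, Itgax, Dpp4 and Spi1) and 0 higher, and of these Spi1, the myeloid factor PU.1, was at 223 and 55.9 CPM.

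The uptake list had 9 genes compared with the Itgae Flt3 cells, of which 1, Ly75, was higher and 5 lower, Clec9a among them by the choice of those cells. Ly75, the endocytic receptor DEC-205, was at 420 and 422 CPM against 90.9 and 36.0 CPM. Mrc1, Cd209a and Marco had no UMI. Of the glycolysis list 2 of 17 genes, Ndrg1 and Egln3, were higher and 0 lower, with Gapdh at 2363 and 2744 CPM against 1978 and 2038 CPM. Pfkfb3, a regulator of glycolysis outside that list, was at 352 and 559 CPM against 5.68 and 36.0 CPM. The tissue dissociation stress list had 6 of 17 genes lower in the mature cells and 0 higher, and between the libraries 2 of 14 were higher, Jun and Egr1, and 2 lower, Ier3 and Nr4a1. Pattern recognition genes were sparse, with none of them at 20 counts in the mature cells, and of the 4 that could be compared with the Itgae Flt3 cells 1, Ifih1, was lower.

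How many markers of other cells were at 0 UMIs in the mature cells differed by list. At 0 were 1 of 12 macrophage, 3 of 10 monocyte, 5 of 15 T cell and 2 of 10 NK cell markers. Of the fibroblast and endothelial markers 4 of 12 were at 0. Summed over 12 macrophage markers that the rule did not use, the level was 332 and 143 CPM in the mature cells against 9011 and 11640 CPM in macrophages, with Mrc1 at 0 UMIs. Of the 12 B cell markers 10 were at 0 UMIs, Cd79a, Cd79b and Ms4a1 among them. Of the 9 neutrophil markers 6 were at 0 UMIs, S100a8 and S100a9 among them. The list summed to 122 and 304 CPM, against 112 and 126 CPM in macrophages, and 16 of its 18 and 48 of its 49 UMIs were of Mmp9, a matrix protease gene that was at least 2-fold higher than in the Itgae Flt3 cells in both libraries. Over the 50 cells at 1% or more of program UMIs Mmp9 was at 46.0 and 12.7 CPM. The T cell and NK cell markers summed to 122 and 74.5 CPM in the Lmo7+/+ cells and 242 and 323 CPM in the Lmo7-/- cells, where the deepest cell held 39 of the NK cell UMIs. The fibroblast and endothelial list stood at 169 and 670 CPM, with Col3a1 at 33.9 and 323 CPM from 3 and 6 cells. Of the 12 tumor cell markers 6 were at 0 UMIs, the keratin genes Krt8, Krt18, Krt7 and Krt19 among them. A further keratin gene, Krt14, and H19, Mmp10 and Prl2c2 had UMIs in these cells, at under 20 counts each. S100a6 and Lgals1 of the same list, which many cell types use, were at 2735 and 2669 CPM and at 1124 and 1180 CPM. Of the plasmacytoid list 0 of 3 compared genes were 2-fold apart from the Itgae Flt3 cells, and of the monocyte list 1 of 4, Plac8, was lower. The part of these other transcripts in the values above was not tested.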

How the data were processed

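Per the labels, each of the 2 samples gave 1 10x library; per the submitters' processing notes the authors used Cell Ranger 2.1.1 with mm10, while the matrix headers name software version 3.0.0. The deposited values are raw UMI counts per gene and droplet for 32285 genes. Droplets under 500 genes or 1000 UMIs, or above 15% mitochondrial UMIs, were removed, and Scrublet doublets were marked but kept. Kept cells had medians of 4535.5 (Lmo7+/+) and 4304.5 (Lmo7-/-) UMIs. The cells, the 28 gene lists and the rules were chosen with earlier results of these data known. Counts were summed per library and cell group and scaled to CPM. Log2 ratios were taken for genes with at least 20 counts, with Clopper-Pearson intervals for the split of counts and for shares, Poisson intervals for CPM and Newcombe intervals for differences. A group at 0 was set to 3 counts, and no ratio was taken where both sides had 3 or fewer. Named genes were drawn from the rule's genes and Lmo7, the 4 members of each list with the most counts, the 12 highest and 8 lowest against the Itgae Flt3 cells and the 8 furthest apart in each direction between libraries, at 100 counts or more and without mitochondrial and ribosomal protein genes; others are named where counts are 5 or fewer, after their values were seen. Scripts were tested on simulated data. Alternatives covered the filters, the gate, doublets, TMM scaling (edgeR 4.0.16), other count minimums, thinning and, added after seeing the data, leaving out deep members, members with T or NK cell transcripts and members with little of the program.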

Additional observations from a re-analysis of the deposited data

Results flagged for a closer look

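Ccl5 and Cxcl9 differed between the libraries in opposite directions in the mature dendritic cells and in macrophages. The log2 ratio of the Lmo7-/- over the Lmo7+/+ library was -1.37 for Ccl5 in the mature cells and 1.63 in macrophages. For Cxcl9, a chemokine induced by interferon gamma, it was -1.13 in the mature cells and 1.07 in macrophages, but 84.0% of the Cxcl9 UMIs of the Lmo7+/+ mature cells came from a single cell. Over the 50 cells at 1% or more of program UMIs the Cxcl9 ratio was -3.35. It turned to 1.15 with both Fscn1 and Ccl22 required, 0.39 with no C1q limit and 0.14 with 1 Ccr7 UMI allowed. The opposite direction of Cxcl9 thus did not hold under every choice of cells. With 1 library per genotype the difference between the cell groups was not tested.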

How the results depend on the processing

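No paired analysis was possible because each genotype has 1 library, and leaving out a replicate could not be done for the same reason. Against 194 genes higher and 171 lower in the Lmo7-/- library, the counts were 616 and 423 at a minimum of 10 counts and 26 and 27 at 50 counts, where more or fewer genes were compared. They were 88 and 90 when both Fscn1 and Ccl22 were required (18 Lmo7-/- cells) and 111 and 70 without any C1q UMI (21 Lmo7+/+ cells). With 1 Ccr7 UMI allowed there were 52 Lmo7+/+ cells, 292 genes lower, and 664 higher than in the Itgae Flt3 cells. The alternatives chosen after seeing the data left 89 genes higher without members over 10000 UMIs, 100 without members with T or NK cell transcripts, and 76 higher and 99 lower without members under 1% program UMIs. As a share of mature and Itgae Flt3 cells together the difference was 4.44 percentage points, and 3.33% of Lmo7+/+ cells leaned to type 1 after thinning. The other 82 of 101 values of this kind stayed within 1.5 times or within their interval, and TMM scaling moved the median of all genes by -0.068 (log2).

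Of 1434 log2 ratios between the libraries recomputed for 96 genes, 28 turned direction, as did 16 of 3151 against the Itgae Flt3 cells, and beyond each alternative's own construction the cause was not tested. Between the libraries, Top2a turned to -2.85 with both Fscn1 and Ccl22 required, -1.87 without C1q UMIs, -1.44 without members over 10000 UMIs, -0.35 without T or NK cell transcripts, -2.80 without members under 1% and -0.43 as a mean over cells. Without members over 10000 UMIs Ube2c turned to -0.34 and Stmn1 to -0.38, without members under 1% to -0.27 and -1.44, and Ube2c as a mean over cells to -0.12. Igfbp4 and Scd2 turned to -0.59 and -0.72 without T or NK cell transcripts, and Col1a1 and Mmp9 to -1.18 and -1.86 without members under 1%. Cxcl9 turned to 0.14 with 1 Ccr7 UMI allowed, 1.15 with both genes required and 0.39 with no C1q limit. Fn1 turned to 0.59 with 3 Ccr7 UMIs required and 0.28 with both genes required, Apol7c to 1.14 with both required, and Irf7 to 0.19 without C1q UMIs. With no C1q limit Col1a1 turned to -0.51, Dnase1l3 to 0.17, Il1b to 0.11, Isg15 to 0.11, Jun to -0.052 and Plet1 to 0.48. Against the Itgae Flt3 cells, Mmp9 turned to -0.39 (Lmo7+/+, 3 Ccr7 UMIs), -0.23 and -0.40 (both libraries, without members over 10000 UMIs) and -3.09 (Lmo7-/-, without members under 1%). Igfbp4 turned to -0.32 (Lmo7+/+, both genes required), -0.15 and -0.020 (without members over 10000 UMIs) and -0.071 and -0.54 (without members under 1%). With no C1q limit Cd68 turned to 0.11, Mgl2 to 0.35 and Lyz2 to 1.85 in the Lmo7+/+ library, and Lyz2 to 0.36 in the Lmo7-/- library. Mgl2 turned to 0.67 (Lmo7+/+) with Xcr1 required in the comparison cells, and Gbp2 and Sirpa to -0.25 and -0.48 (Lmo7-/-) with Flt3 not required. With 147697 and 161083 UMIs over all members, genes under 20 counts could not be compared.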
